A study of Mus musculus with 16 samples.

Results

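The C-type lectin family was examined in mouse liver as the genes whose array annotation symbol starts with Clec followed by a digit. Of 19505 genes tested, 32 carried such a symbol. Clec4f, Clec1b and Clec4g were left out by the rule that defined the set, which leaves 29 members. Each member had 1 probe set. Clec7a is not analysed here. There were 8 liver samples of a nonalcoholic steatohepatitis (NASH) mouse model and 8 control liver samples. All were labelled as C57BL/6 liver biopsies, with RNA hybridised to 1-colour Affymetrix arrays. NASH model samples 1a and 1b share a number. The labels give no age, sex or scan batch and no method by which the model was produced, so the model is taken here only as labelled. Nothing in them says that each sample came from its own animal, and p-values therefore measure the spread between samples. The liver label was checked on hepatocyte markers, of which Alb, Apoa1 and Ttr averaged 12.6, 12.4 and 12.2 on the log2 intensity scale in NASH model livers and 12.6, 12.4 and 12.2 in control livers.

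C-type lectin receptors are surface proteins of myeloid cells, endothelium and lymphoid cells that bind glycans, lipids or proteins of microbes and of dying host cells. The activating receptors signal through the kinase Syk, either directly or through the adaptors Fcer1g and Tyrobp, and then through the Card9, Bcl10 and Malt1 complex. The inhibitory receptors recruit phosphatases such as Ptpn6. In the liver they are known chiefly from macrophages, dendritic cells and the sinusoidal endothelium.

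Genes of myeloid receptors made up all the rises in the family. The Clec2 ligand group gave 0 of 8 higher and the endothelial, secreted and other genes 0 of 6, against 13.2% of all genes. Groups this small cannot be told from that share, and several of their members lay below the background floor described below in most samples. In NASH model livers 9 of 29 members were higher than in control livers and 1 was lower, at a Benjamini-Hochberg adjusted p under 0.05 in limma over all genes. The higher share of 31.0% compares with 13.2% of all genes called higher, and the lower share of 3.45% with 13.4% of all genes called lower. In both directions together 26.6% of all genes were called. The fitted difference was 2-fold or more upward for Clec4d, Clec12a, Clec4n, Clec5a and Clec4a2, 17.2% of the members against 4.02% of all genes. For Clec5a and Clec4a2 all 8 and 7 of 8 controls were below the background floor described next, so a 2-fold rise is not established for them. For 6 of the 9 the groups did not overlap, 20.7% of the members against 5.64% of all genes. The median log2 fold change was 0.06 over the members and -0.04 over all genes. In whole-liver RNA, more cells of a type and more RNA per cell cannot be told apart.

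Many members were dim. A background floor of 2.89 on the log2 scale was set at the 95th percentile of 1412 olfactory and vomeronasal receptor genes, which liver is not known to express. Of the 29 members 14 lay above it in all 16 samples and 2, Clec4b2 and Clec4a4, lay below it in all 16. Array signals near the floor can compress differences, so fitted folds there are not a reliable size of change. The number of arrays sets the precision.

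**Figure D1:**
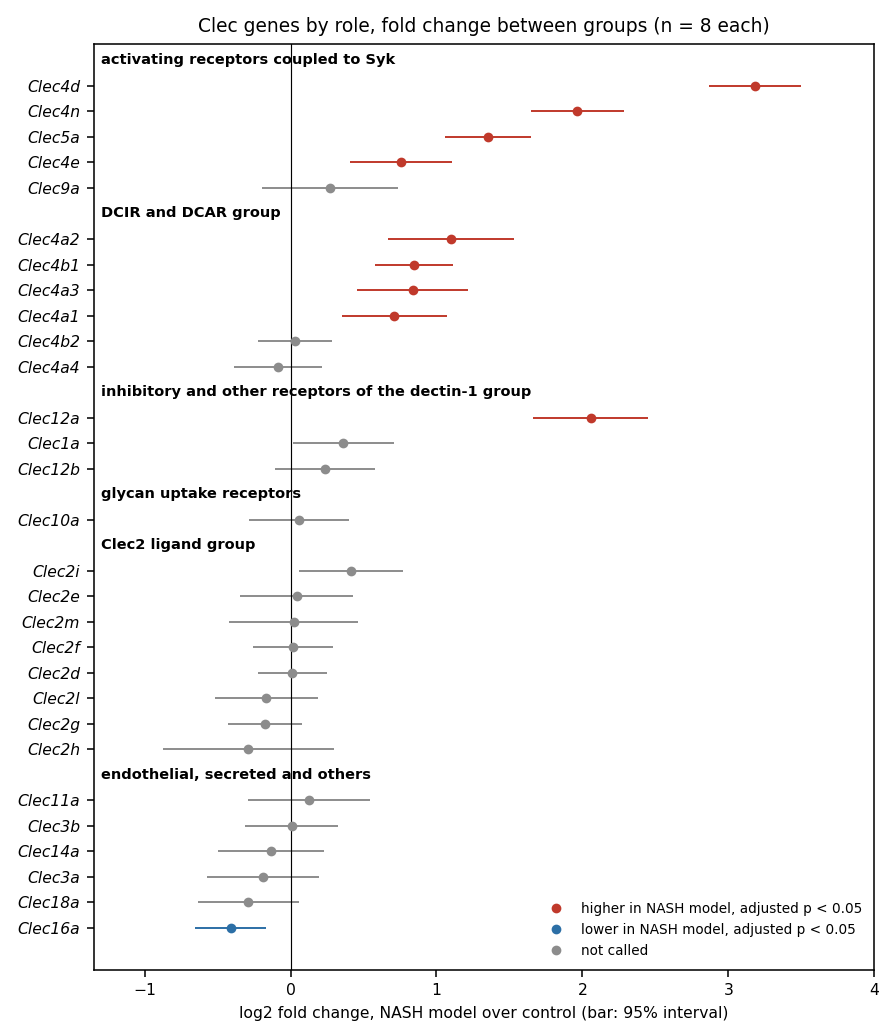
Log2 fold change of each of the 29 Clec genes, NASH model over control (x axis), grouped by role, with 95% intervals and n = 8 samples per group. Red marks the 9 members called higher, blue the 1 called lower and grey the 19 not called, and the largest change is that of Clec4d at 3.18.

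Of 5 activating receptor genes 4 rose, led by Clec4d, against 13.2% of all genes called higher. The median difference over the 5 was 1.35. Clec4d encodes a receptor for mycobacterial glycolipid that pairs with Fcer1g and with the product of its neighbour Clec4e. Its log2 intensity in NASH model livers had a lowest value of 5.82, a median of 6.26 and a highest value of 6.70, against 2.31, 3.14 and 3.43 in control livers. The groups lay far apart, and 1 control sample, control 5, fell below the floor. The rise was 9.08-fold (log2 fold change 3.18 ± 0.15 SE, adjusted p = 7.7e-12 in limma).

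Clec4n, known as dectin-2, binds mannose-rich fungal glycans and also signals through Fcer1g. Its values in NASH model livers had a lowest of 5.81, a median of 5.87 and a highest of 6.07, against 3.34, 3.82 and 4.73 in control livers. All 8 NASH model samples lay above every control, within a narrow band. The difference was 1.97 ± 0.15 SE, a 3.91-fold rise (adjusted p = 1.05e-08).

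Clec5a encodes a myeloid receptor that depends on Tyrobp. It reached 2.60 at its lowest, 3.11 at the median and 3.79 at its highest in NASH model livers, against 1.45, 1.77 and 2.13 in control livers. The groups did not overlap, but all 8 controls and 2 NASH model samples were below the floor. The rise was therefore at least 1.17-fold, from measured means of 3.12 ± 0.35 in NASH model livers and 1.77 ± 0.23 in control livers (SD, n = 8 each), with a fitted difference of 1.35 ± 0.14 SE (adjusted p = 4.7e-07).

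Clec4e, known as Mincle, senses mycobacterial cord factor and a nuclear protein released by dead cells. It averaged 4.90 ± 0.34 in NASH model livers and 4.15 ± 0.39 in control livers (SD), a rise of 0.76 ± 0.17 SE (adjusted p = 0.0019). The groups overlapped, since NASH model samples began at 4.49 and controls reached 4.66. Clec9a, a receptor of cross-presenting dendritic cells for the actin filaments of dead cells, averaged 4.02 ± 0.39 in NASH model livers and 3.75 ± 0.59 in control livers. Its difference of 0.27 (95% interval -0.20 to 0.74) did not pass (adjusted p = 0.42).

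**Figure D2:**
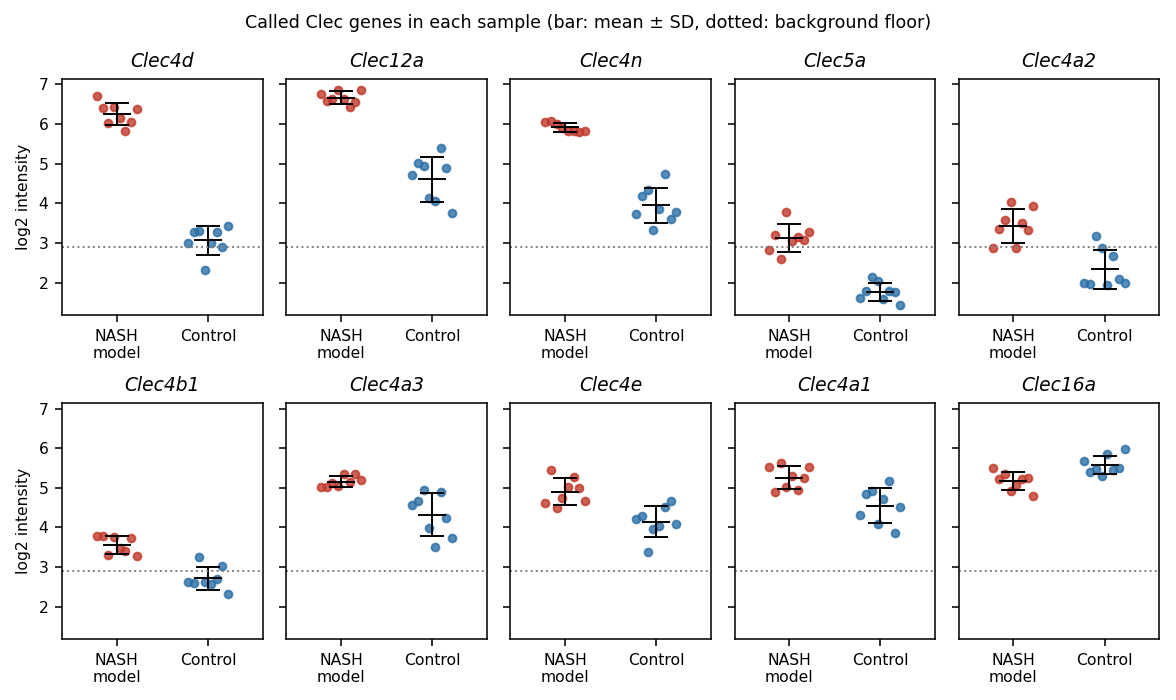
Log2 intensity (y axis) of the 10 called Clec genes in each of 8 NASH model (red, left) and 8 control samples (blue, right), with the mean ± SD and the background floor of 2.89 as a dotted line. The groups do not overlap for Clec4d, Clec12a, Clec4n, Clec5a, Clec4b1 and Clec4a3.

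Of 6 genes of the dendritic cell inhibitory and activating receptors (DCIR and DCAR), 4 rose and 0 fell. The counts were the same at an unadjusted p under 0.05 in limma. Of all genes 13.2% were called higher, and the median difference over the 6 was 0.77. Clec4a2 encodes the DCIR that carries an inhibitory tyrosine motif. It was called higher (adjusted p = 4.2e-04), with means of 3.43 ± 0.42 in NASH model livers and 2.33 ± 0.49 in control livers. In 2 of 8 NASH model samples and 7 of 8 controls it was below the floor, so the fitted difference of 1.10 ± 0.21 SE is set against background in most controls. The groups overlapped through control 4 at 3.17.

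Clec4b1 encodes the activating DCAR, which pairs with Fcer1g. It had a lowest value of 3.28, a median of 3.61 and a highest value of 3.78 in NASH model livers, against 2.32, 2.63 and 3.25 in control livers. The highest control came within 0.1 of the lowest NASH model sample without reaching it, and 6 controls were below the floor. The rise was 0.85 ± 0.13 SE (adjusted p = 4.0e-05).

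Clec4a3, also called Dcir3, had a lowest value of 5.02, a median of 5.13 and a highest value of 5.36 in NASH model livers, against 3.50, 4.41 and 4.96 in control livers. The NASH model samples formed a tight group just above the most intense control. The rise was 0.84 ± 0.18 SE (adjusted p = 0.0016). Clec4a1, also called Dcir4, rose by 0.71 ± 0.17 SE (adjusted p = 0.0039), with means of 5.26 ± 0.28 in NASH model livers and 4.55 ± 0.45 in control livers that overlapped in range. The remaining members of the group, Clec4b2 and Clec4a4, were below the floor in every sample, and no fold is read from their fitted values, which are drawn in the plots of fold change for completeness. The genes of this group are close paralogs, and their probe sets may cross-hybridise, which was not tested.

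Clec12a encodes an inhibitory receptor of myeloid cells that senses uric acid crystals from dead cells. In NASH model livers it had a lowest value of 6.42, a median of 6.64 and a highest value of 6.87, against 3.75, 4.80 and 5.39 in control livers. Every NASH model sample lay more than 1 log2 unit above the highest control. The rise was 4.16-fold (2.06 ± 0.19 SE, adjusted p = 9.85e-08). The related inhibitory receptor gene Clec12b averaged 2.31 ± 0.25 in NASH model livers and 2.07 ± 0.43 in control livers and was below the floor in all but control 5. Clec1a, a receptor for fungal melanin on endothelial and myeloid cells, had a lowest value of 3.57, a median of 4.01 and a highest value of 4.24 in NASH model livers, against 3.01, 3.61 and 4.20 in control livers. The groups overlapped over most of the control range, and the difference of 0.36 ± 0.16 SE did not pass (adjusted p = 0.12). Clec10a, a galactose-type lectin of macrophages and dendritic cells, averaged 3.64 ± 0.12 in NASH model livers and 3.58 ± 0.48 in control livers, with a difference of 0.06 (95% interval -0.28 to 0.40, adjusted p = 0.85).

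No member of the Clec2 group passed the test. These genes encode surface ligands, several of which are read by the NKR-P1 receptors of natural killer cells. Of its 8 members 0 were called in limma, against 26.6% of all genes, and 1, Clec2i, had an unadjusted p under 0.05. Clec2d, the ligand of the inhibitory receptor encoded by Klrb1b, had a lowest value of 9.07, a median of 9.59 and a highest value of 9.84 in NASH model livers, against 9.27, 9.59 and 9.73 in control livers. The ranges nearly coincided, and the 95% interval of the difference ran from -0.22 to 0.25.

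Clec2i, the ligand of the receptor encoded by Klrb1f, was the member nearest to a call. It had a lowest value of 3.64, a median of 4.21 and a highest value of 5.06 in NASH model livers, against 3.52, 3.91 and 4.19 in control livers. NASH model 3 and 6, at 5.06 and 4.88, were the highest, while NASH model 2 at 3.64 lay near the bottom of the control range. Its difference was 0.42 ± 0.17 SE (adjusted p = 0.081), and it passed without NASH model 2 (0.51, adjusted p = 0.025). Clec2h, known as Clr-f and expressed in the gut, varied most within groups, between 3.52 and 5.22 in NASH model livers and between 3.75 and 6.16 in control livers, and differed by -0.29 (95% interval -0.88 to 0.29). Clec2g averaged 5.13 ± 0.23 in NASH model livers and 5.31 ± 0.25 in control livers, and differed by -0.17 (95% interval -0.43 to 0.08). Clec2f averaged 3.35 ± 0.24 in NASH model livers and 3.34 ± 0.30 in control livers. Clec2e, Clec2m and Clec2l were below the floor in at least 7 of 8 samples of each group. Of the 5 measured NKR-P1 receptor genes (Klrb1, Klrb1a, Klrb1b, Klrb1c and Klrb1f) 0 passed in limma, against 26.6% of all genes. A list this short cannot be told from that share. Only Klrb1b had an unadjusted p under 0.05, at a difference of 0.37 ± 0.15 SE (adjusted p = 0.089). Klrb1b was below the floor in 7 of 8 controls and 3 of 8 NASH model samples, and Klrb1 in 6 of 8 controls and all 8 NASH model samples. Klrb1a, Klrb1c and Klrb1f were below the floor in all 16 samples.

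Among the 6 endothelial, secreted and other genes, Clec16a alone was called, against 26.6% of all genes, and it was lower. Clec16a encodes an intracellular protein of endosomes and mitophagy, which in spite of its symbol is not a cell-surface lectin receptor. It had a lowest value of 4.79, a median of 5.22 and a highest value of 5.49 in NASH model livers, against 5.30, 5.48 and 5.97 in control livers. The groups overlapped. The difference was -0.41 ± 0.12 SE (adjusted p = 0.012), and it was not called with the values as deposited (-0.29, adjusted p = 0.068) or centred on spike-in controls (-0.19, adjusted p = 0.35).

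Clec14a, an endothelial receptor of vessel growth, averaged 4.85 ± 0.32 in NASH model livers and 4.98 ± 0.43 in control livers, with a difference of -0.13 (95% interval -0.50 to 0.23). Clec11a, a secreted growth factor of bone and marrow, averaged 3.77 ± 0.29 in NASH model livers and 3.64 ± 0.55 in control livers. Clec18a averaged 2.92 ± 0.27 in NASH model livers and 3.21 ± 0.43 in control livers, close to the floor. Clec3b, the plasminogen-binding protein tetranectin, was below the floor in all 8 NASH model samples and 7 of 8 controls, and Clec3a, its relative of cartilage, in 7 NASH model samples and 6 controls. Over the 19 members not called, differences ran from -0.29 to 0.42 and adjusted p from 0.081 to 0.98, and their 95% intervals all lay between -0.88 and 0.77. Of the genes outside the set, Clec4f, a Kupffer cell lectin, fell by 0.97 ± 0.23 SE and Clec4g, a sinusoidal endothelial lectin, fell by 0.69 ± 0.13 SE, while Clec1b differed by 0.08 ± 0.12 SE (adjusted p = 0.69). The counts of lower members above do not include them.

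**Figure D3:**
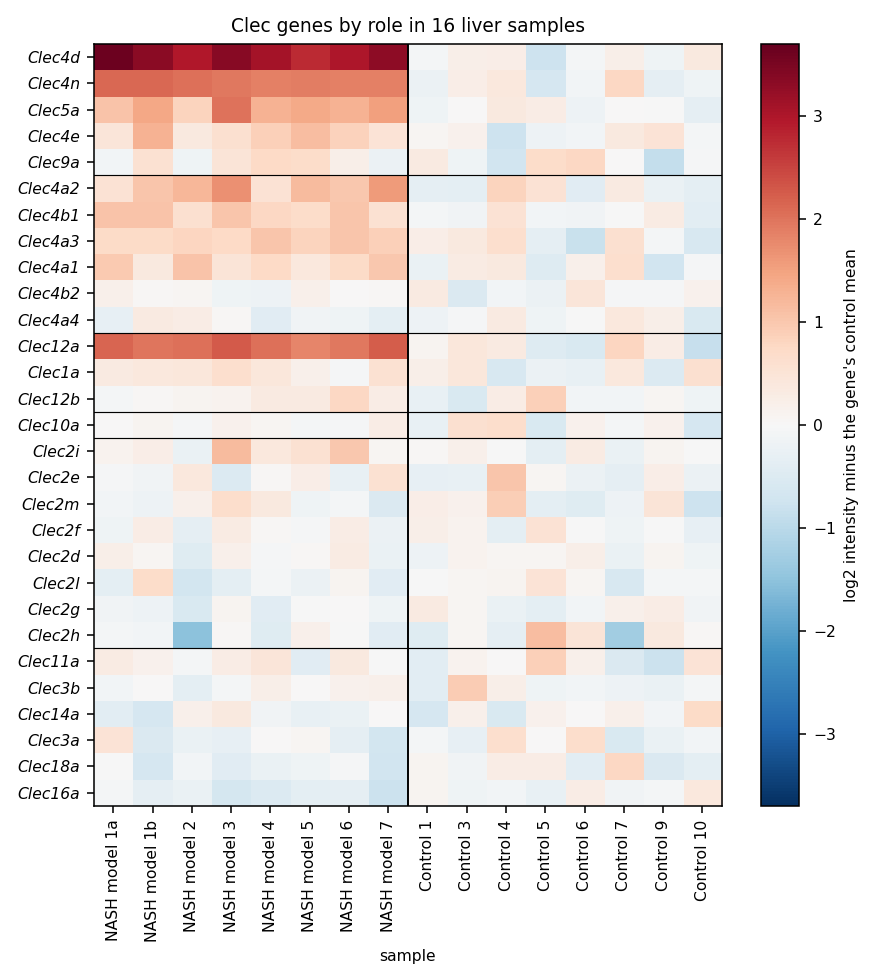
Log2 intensity of the 29 Clec genes (rows, by role) in 8 NASH model samples (left) and 8 control samples (right), each minus the gene's control mean (colour, log2 units). The rows of Clec4d, Clec4n and Clec12a are red in all 8 NASH model samples.

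For 8 of the 9 higher members, all but Clec5a, the SD was larger in controls than in NASH model livers. It was larger in controls for 25 of all 29 members (86.2%). Over all genes the SD was larger in controls for 60.7%. Over the 10174 genes whose control means lay within the range of those 9 it was 69.6%, a share from which 9 genes cannot be told. For Clec12a the SD was 0.15 in NASH model livers and 0.57 in control livers. For Clec4a3 it was 0.13 in NASH model livers and 0.54 in control livers. Other gaps were narrower, such as 0.34 in NASH model livers and 0.39 in control livers for Clec4e. No test was made of these spreads. The mean log2 value of the 9 ran from 4.82 in NASH model 2 to 5.06 in NASH model 3, and from 3.23 in control 10 to 3.90 in control 7. Control 4 was the highest control for 4 of the 9 and control 7 for 3, while NASH model 3 was the highest NASH model sample for 3.

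The rises were grouped along chromosome 6, which holds most of the members, in the RefSeq gene order of GRCm38.p6. All 29 members matched that table, and a gap of over 0.5 Mb was taken to end a block. Clec4a1, Clec4a3, Clec4a4, Clec4b1, Clec4a2, Clec4b2, Clec4n, Clec4d and Clec4e lie in this order in 1 block with no other measured protein-coding gene between them. Of these 9, 7 were called higher, against 13.2% of all genes. The DCIR and DCAR paralogs lie in this block, and cross-hybridisation among their probe sets was not tested. The 11 members from Clec2h to Clec1a form a second block, in which 1 was called higher, Clec12a, a count near the 13.2% of all genes. Clec5a and Clec2l lie alone on the same chromosome, and the members on other chromosomes gave 0 higher and, with Clec16a, 1 lower.

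Among the genes beside the Clec4a1 to Clec4e block, those with signal above the floor moved in both directions. Of the 5 nearest measured genes before it, C3ar1, the receptor of a complement fragment on myeloid cells, rose by 3.08 ± 0.20 SE, and Necap1, which lies between C3ar1 and Clec4a1 and encodes an endocytosis adaptor, fell by 0.40 ± 0.12 SE. The remaining ones before it, Dppa3, Nanog and Slc2a3, were below the floor in most samples of each group. The 5 after it are vomeronasal receptor genes, a family that served to set the floor, so nothing is read from them. Of the 7 other genes inside the Clec2h to Clec1a block, BC035044 and the lymphocyte activation lectin Cd69 were called higher, against 13.2% of all genes. So few genes cannot be told from that share. BC035044 was below the floor in all 16 samples and Cd69 in all 8 controls and 6 of 8 NASH model samples. Of the 5 genes before that block A2ml1 was called higher and Fkbp4 lower. Of the 5 after it Olr1 and Klrd1 were called higher, each below the floor in all 8 controls and 6 of 8 NASH model samples. The RefSeq span of Clec12b overlaps those of its neighbours Clec1b, Clec9a and Clec1a.

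**Figure D4:**
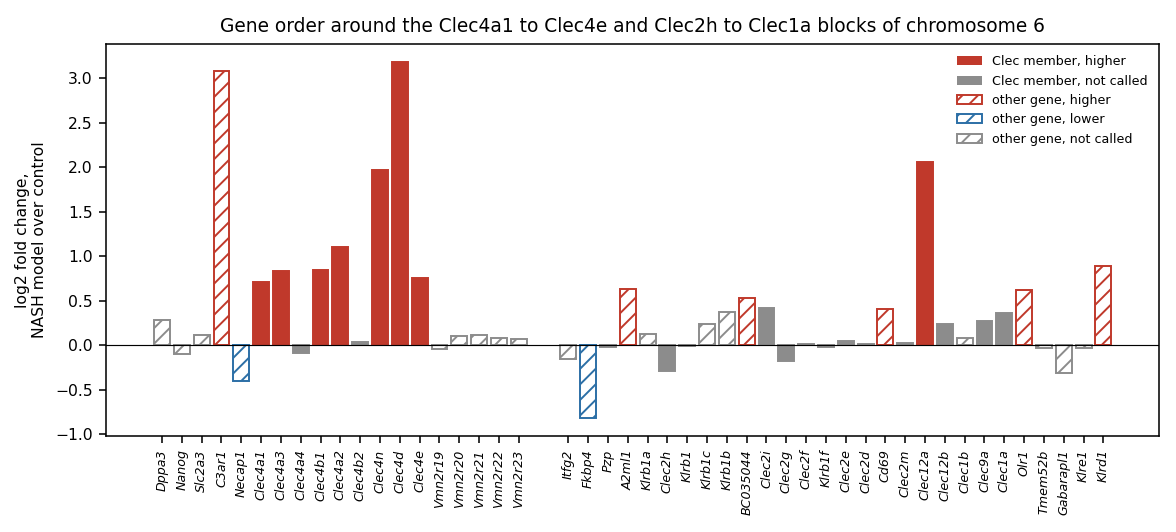
Log2 fold change, NASH model over control (y axis), of measured protein-coding genes in RefSeq order on chromosome 6 (x axis, evenly spaced), for the Clec4a1 to Clec4e block (left) and the Clec2h to Clec1a block (right) with 5 genes on each side. Filled bars are Clec members and hatched bars other genes, and 7 of the 9 members of the left block are red (higher).

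Promoter windows were read from RefSeq for 22 of the 29 members, from 250 bases before to 50 after the start, to show the sequence in front of genes that rose together. They were searched on both strands for the PU box GAGGAA, the core of sites of PU.1, a transcription factor of myeloid cells. The windows below are those of the 3 highest risers that have one and of the paralogs Clec4b1, which was called, and Clec4b2, which stayed below the floor. Each is written 5′ to 3′ on the gene's strand from GRCm38.p6, with PU boxes in capitals (TTCCTC where the box is on the other strand).
Clec4d (chr6:123261857-123262156, plus strand): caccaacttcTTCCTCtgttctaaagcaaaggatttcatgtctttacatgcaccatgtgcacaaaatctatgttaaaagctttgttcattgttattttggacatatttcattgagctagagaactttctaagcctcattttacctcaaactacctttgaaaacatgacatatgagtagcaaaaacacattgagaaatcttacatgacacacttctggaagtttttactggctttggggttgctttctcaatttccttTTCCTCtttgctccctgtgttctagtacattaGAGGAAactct
Clec12a (chr6:129349994-129350293, plus strand): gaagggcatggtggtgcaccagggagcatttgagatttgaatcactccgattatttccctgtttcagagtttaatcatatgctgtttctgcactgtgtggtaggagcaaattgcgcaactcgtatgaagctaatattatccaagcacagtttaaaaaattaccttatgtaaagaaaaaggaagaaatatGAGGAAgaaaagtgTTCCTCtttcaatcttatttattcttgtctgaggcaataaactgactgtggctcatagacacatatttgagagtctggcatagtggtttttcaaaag
Clec5a (chr6:40585756-40586055, minus strand): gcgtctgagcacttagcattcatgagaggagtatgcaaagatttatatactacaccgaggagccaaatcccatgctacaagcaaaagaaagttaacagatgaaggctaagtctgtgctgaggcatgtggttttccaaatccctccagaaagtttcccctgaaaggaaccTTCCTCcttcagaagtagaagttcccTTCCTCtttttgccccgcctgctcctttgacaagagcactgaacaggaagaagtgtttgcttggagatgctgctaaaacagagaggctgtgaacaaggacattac
Clec4b1 (chr6:123049712-123050011, plus strand): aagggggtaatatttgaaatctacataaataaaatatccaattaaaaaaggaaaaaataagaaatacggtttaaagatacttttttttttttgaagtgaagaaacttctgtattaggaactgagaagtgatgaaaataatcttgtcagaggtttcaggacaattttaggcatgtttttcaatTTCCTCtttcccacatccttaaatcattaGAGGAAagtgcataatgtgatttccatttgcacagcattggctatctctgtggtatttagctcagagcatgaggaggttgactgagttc
Clec4b2 (chr6:123172773-123173072, plus strand): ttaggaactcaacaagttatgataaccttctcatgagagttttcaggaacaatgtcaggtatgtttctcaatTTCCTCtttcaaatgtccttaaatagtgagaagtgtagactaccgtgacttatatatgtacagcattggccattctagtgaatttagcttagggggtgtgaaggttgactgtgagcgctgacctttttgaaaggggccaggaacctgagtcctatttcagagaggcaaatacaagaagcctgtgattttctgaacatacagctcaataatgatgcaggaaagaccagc

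Clec4d held 3 PU boxes, at -240, 7 and 39 bases from the start site, Clec12a 2 at -61 and -47, and Clec5a 2 at -81 and -55. Clec4b1 held 2, at -68 and -39, and Clec4b2 held 1, at -178. The best local alignment of the last pair covered 190 columns with 72.6% identity, so the windows of these paralogs start at shifted positions of a related sequence. At least 1 PU box stood in the windows of 7 of the 8 higher members that had one, in 14 of 22 members (63.6%) and in 31.3% of 27025 genes. The AP-1 motif TGANTCA stood in 6 of the 22 (27.3%, against 9.0% of genes) and the C/EBP motif TTGCNNAA in 5 (22.7%, against 12.2%). The NF-kB motif (3 G, any 5 bases and 2 C) stood in 4 (18.2%, against 53.5%). These windows were poorer in G and C than most, with a median of 43.0% against 52.7% over all windows, and the part of base composition in these shares was not tested. A match describes letters, not binding.

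Most of the genes that carry the signals of these receptors were higher as well. Of 21 measured adaptors and effectors 14 rose (66.7%, against 13.2% of all genes) and 0 fell, in limma and at an unadjusted p under 0.05 alike. The 7 not called were Vav3, Src, Ptpn11, Hcst, Malt1, Vav2 and Card9, of which Hcst was below the floor in all 16 samples. The median difference over the 21 was 0.73. Tyrobp, the partner of Clec5a, had a lowest value of 7.72, a median of 8.05 and a highest value of 8.31 in NASH model livers, against 5.18, 5.56 and 5.97 in control livers. The groups did not overlap, and the rise was 2.48 ± 0.12 SE (adjusted p = 9.8e-12).

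Fcer1g, the partner of Clec4d, Clec4n, Clec4e and Clec4b1, rose by 1.87 ± 0.13 SE, with 7.81 ± 0.19 in NASH model livers and 5.94 ± 0.34 in control livers (adjusted p = 3.3e-09). Syk rose by 1.33 ± 0.18 SE (adjusted p = 9.7e-06), and Blnk, an adaptor that Syk phosphorylates, by 2.17 ± 0.18 SE. Ptpn6, the phosphatase used by inhibitory receptors, rose by 0.79 ± 0.10 SE (adjusted p = 5.1e-06), so genes of both the activating and the inhibitory arm were higher. Card9 averaged 5.08 ± 0.34 in NASH model livers and 5.23 ± 0.34 in control livers, with a difference of -0.15 (95% interval -0.48 to 0.19, adjusted p = 0.56). Its partner Malt1 differed by 0.00 ± 0.17 SE, whereas Bcl10, the third gene of the complex, rose by 0.73 ± 0.18 SE. The list names genes of general leukocyte signalling, so it is not specific to C-type lectins.

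**Figure D5:**
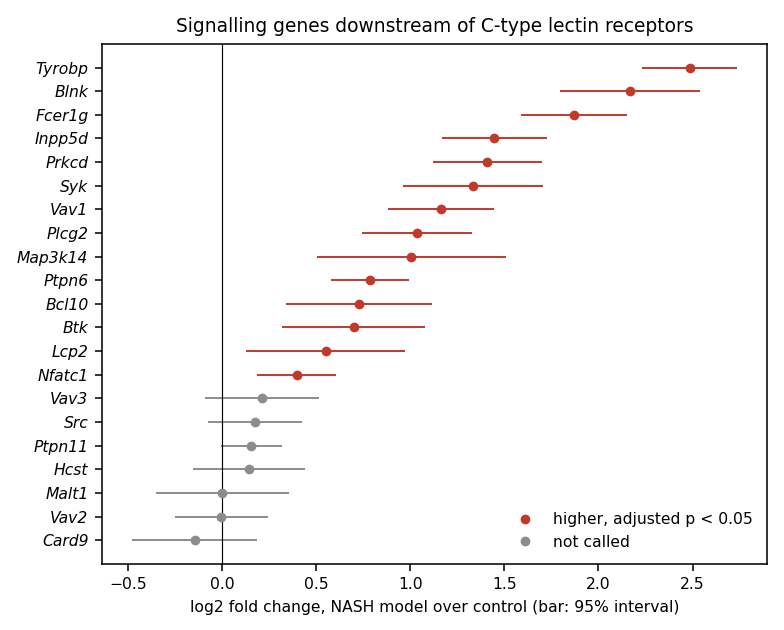
Log2 fold change, NASH model over control (x axis), of 21 genes that carry signals of C-type lectin receptors, with 95% intervals and n = 8 samples per group. Red marks the 14 called higher, with Tyrobp at 2.48 the largest, and grey the 7 not called, including Card9.

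Lectin-fold genes without a Clec symbol moved in both directions. Of 42 measured, 8 rose (19.0%, against 13.2% of all genes) and 7 fell (16.7%, against 13.4%), and their median difference was 0.03. Mrc2, a collagen uptake receptor of stromal cells, was higher by a fitted 2.01 ± 0.20 SE with 6 of 8 controls below the floor. The endothelial and myeloid receptor Cd93 rose by 1.63 ± 0.13 SE and the inhibitory receptor Cd72 by 1.28 ± 0.17 SE. The members that fell included the secreted collectins Colec10 (-1.22 ± 0.21 SE), Mbl2 (-1.18 ± 0.18 SE) and Mbl1 (-1.16 ± 0.20 SE), which bind microbial sugars, and the hepatocyte receptor subunits Asgr1 and Asgr2. The macrophage mannose receptor Mrc1 differed by 0.03 ± 0.13 SE (adjusted p = 0.92).

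Markers of cell types that carry these lectins also differed between the groups. Macrophage markers of the recruited and lipid-associated kind were higher for 13 of 14 measured genes (92.9%, against 13.2% of all genes). Mmp12 was up by 8.26 ± 0.17 SE, Gpnmb by 7.51 ± 0.19 SE and Lgals3 by 4.08 ± 0.17 SE. The mean log2 value of that list ran from 7.12 to 7.72 in NASH model livers, against 4.07 to 4.65 in control livers, and none of its genes was below the floor in all samples. Kupffer cell markers were higher for 1 of 10 (10%, against 13.2% of all genes) and lower for 5 (50%, against 13.4%). The changes were -2.84 ± 0.13 SE for Cd163, -2.00 ± 0.25 SE for Timd4 and -1.50 ± 0.23 SE for C6. The mean of that list lay between 5.89 and 6.53 in NASH model livers, against 6.42 to 7.44 in control livers. Of 7 markers of conventional dendritic cells of type 1, which Clec9a also marks, Wdfy4, Cadm1, Irf8 and Tlr3 rose and 0 fell. The higher share was 57.1%, against 13.2% of all genes. Xcr1, the defining one, averaged 2.9 in NASH model livers and 2.6 in control livers, near the floor, and was not called. Itgae (0.02) and Batf3 (-0.30) were not called either. Of 7 type 2 markers Sirpa and Flt3 were called higher (28.6%, against 13.2% of all genes) and 0 lower. Sirpa is also a macrophage gene, and Flt3 was below the floor in all 8 controls and 3 of 8 NASH model samples. Cd209a (0.40), Zbtb46 (0.19), Irf4 (0.15), Ccr7 (-0.13) and Mgl2 (-0.25) were not called.

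Neutrophils also carry Clec4d, Clec4e, Clec5a and Clec12a. Of 10 measured neutrophil markers 2 were called higher (20.0%, against 13.2% of all genes), Csf3r by 1.30 ± 0.25 SE, and S100a8 with a fitted difference of 1.11 ± 0.31 SE. S100a8 was below the floor in 7 of 8 controls and was not called without NASH model 2 and 7 (0.81, adjusted p = 0.058). The mean of the list ran from 3.01 to 3.79 in NASH model livers, against 2.58 to 3.85 in control livers, so the groups overlapped. Ltf was below the floor in all 16 samples, and S100a9 averaged 4.25 in NASH model livers and 3.87 in control livers. Of 13 T, B and NK cell markers 3 were called higher, Cd8a, Cd3e and Nkg7 (23.1%, against 13.2% of all genes), and 1, Cd4, fell (7.69%, against 13.4%). Cd8a was below the floor in NASH model 6 and in every control except control 6. Cd3e was below it in controls 1, 6 and 9. The mean of the list was 2.97 to 3.23 in NASH model livers and 2.79 to 3.08 in control livers. The call of Cd3e was lost when samples 1a and 1b of the NASH model were omitted (0.49, adjusted p = 0.069) and with the replicate block (0.58, adjusted p = 0.078). Of 12 sinusoidal endothelial markers 2 rose (16.7%, against 13.2% of all genes), Stab1 among them, and 5 fell (41.7%, against 13.4%). Kdr and Oit3 fell by 0.70 each. The list mean was 5.90 to 6.30 in NASH model livers and 6.03 to 6.63 in control livers. Stellate cell and myofibroblast markers were higher for 10 of 12 (83.3%, against 13.2% of all genes), among them Lum and Col3a1. Cholangiocyte markers were higher for 5 of 7 (71.4%), among them Muc1 and Tspan8, the latter below the floor in 7 of 8 controls. Of 10 hepatocyte markers 3 fell, F7, Hnf4a and Fgb (30.0%, against 13.4% of all genes), and 0 rose. The part of any of these shifts in the Clec results was not tested.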

How the data were processed

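Liver RNA of 8 NASH model and 8 control samples was measured on 1-colour arrays. The authors deposited 1 value table of log2 intensities for 29129 probe sets, with values from 0.62 to 12.7. Their summarisation method and the array's genome build were not given in the sources used here. A single gene symbol was annotated for 19572 probe sets, several for 0 and none for 9557, controls among them. Array medians ran from 3.52 to 3.66, and quantile normalization over all probe sets was applied. It moved no value by more than 0.16. The brightest probe set by mean over all samples stood for each of 19505 genes, with no filter on low values. Testing used lmFit and eBayes of limma 3.58.1 in R 4.3.3, two-sided and without covariates, with Benjamini-Hochberg adjustment over all genes and a threshold of 0.05.

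The members and the gene lists were chosen with earlier results of these data known. Every member is named. Range and median are given for called members whose groups do not overlap (at most 8) and for members nearest the threshold, and also for Clec2d and Clec16a, chosen after their values were seen. Of each list, up to 3 called genes with the largest change are named, along with Fcer1g, Tyrobp, Syk, Card9 and Ptpn6. Other genes, such as those beside the chromosome 6 blocks, were named after their values were seen. Replicate numbers shared by the groups were not treated as pairs in the main analysis. Deviations from the group means of same-numbered samples correlated between -0.02 and 0.06 over 6 numbers. Such values do not show that these samples shared no day or batch. NASH model 1a and 1b differed with an SD of 0.387 over genes, within the 0.340 to 0.466 of the 27 other pairs, and were kept as separate samples. Such an SD cannot tell biopsies of the same animal from those of different animals. Alternatives were other scalings, a filter on dim genes, other variance models, the omission of samples and a replicate block.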

Additional observations from a re-analysis of the deposited data

Results flagged for a closer look

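Each named gene was examined for a sample far from the other 7 of its group, by the gap to the nearest sample relative to the range. Of 138 groups of values, 8 held such a sample, and chance flags about 5% of groups. Among the Clec genes, Clec4d was 2.31 in control 5, against 2.91 to 3.43 in the other controls. Clec2e was 2.93 in control 4, against 1.57 to 2.16. Clec3b was 2.90 in control 3, against 1.56 to 2.18. In NASH model 2 Clec2h was 3.52, whereas its fellow samples lay between 4.58 and 5.22. Clec2e and Clec3b were below the floor in the other controls.

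Among the other named genes, Mrc2 was 3.89 in NASH model 1a, and between 4.57 and 5.18 in the rest of that group. Timd4 was 3.52 in control 5, against 4.60 to 5.50. In control 4, Irf8 was 4.83, against 3.97 to 4.29, and S100a8 was 4.30, against 1.58 to 2.81.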

How the results depend on the processing

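The 9 higher members were all called again under the 28 alternatives, except that Clec5a, Clec4a2 and Clec4b1 were not tested without the dimmest 40% of genes, which left 17 members and 6 higher. Clec4d ranged from 3.08 to 3.32, Clec12a from 1.93 to 2.23 and Clec4n from 1.87 to 2.16, and the highest adjusted p of the 9 was 0.025, for Clec4a1 without NASH model 2 and 7. The count of higher members was 11 with values as deposited and with spike-in centring, where Clec1a (0.46 and 0.56) and Clec2i (0.54 and 0.63) passed. The count of lower members was 0 in place of 1 with values as deposited and with spike-in centring, where Clec16a did not pass. The cause was not tested. Spike-in centring moved the median of all genes to 0.06, against -0.04, and calls were 73.7% higher genes, against 49.6% in the main analysis and 39.2% with median centring. Other lectin-fold genes gave 5 higher in place of 8 without the dimmest 40%, where fewer genes are tested, and 4 lower in place of 7 with spike-in centring. Leaving out each sample gave 9 to 10 higher members, 1 lower member, 13 to 14 signalling genes higher and 4760 to 5122 calls over all genes. Clec1a passed without control 10 (0.45, adjusted p = 0.044) and Clec12b without control 5 (adjusted p = 0.048), where every remaining sample was below the floor. With the replicate block 10 members were higher, Clec2i (0.56, adjusted p = 0.013) joining the 9, 1 was lower, and 3924 genes were called over all. Signal over background limits the members near the floor.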
